A study of Drosophila melanogaster with 6 samples.

Results

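DNA labelled in early S phase was compared with DNA labelled in late S phase, window by window along the chromosomes of Kc cells. The windows were chosen by coverage alone: 53434 of the 55900 windows in the files had a value above 0 in at least 1 of the 6 libraries, and 4 of these 6 libraries belong to the comparison. They are 2 replicates of the Early S fraction and 2 of the Late S fraction, and 2 libraries of a Mid S fraction were used beside them. At the edge of the rule, 294 windows held 1 read over all libraries together and none of them was called different, while the 2466 windows left out held no read.

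Kc is a line of cultured cells derived from embryos of the fruit fly Drosophila melanogaster. The labels give the cells as wild type, female, of a late embryonic stage and of genotype se/e, which all groups share. Growing cells took up the thymidine analogue BrdU at 50 µg/ml for 1 hour. They were fixed and separated by DNA content into the fractions Early S, Mid S and Late S, and BrdU-labelled DNA was recovered with an antibody and sequenced. All libraries come from this single line, and nothing in the labels says that replicates were separate cultures, so the spread behind each p-value may be a technical one.

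In each S phase, chromosomes are copied from many start sites that do not all fire at the same time. Open, gene-rich chromatin is generally copied early, and silent chromatin, above all the repeat-rich heterochromatin around centromeres, is generally copied late. A stretch of DNA copied at about the same time is called a timing domain, and the slope between an early and a late domain is called a timing transition.

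Values were RPKM, read numbers scaled to the width of the window and to the reads of the library. The scaling rested on 2936097 and 1892986 reads for Early S, 2801800 and 1981524 reads for Mid S, and 1856781 and 1384200 reads for Late S. The median tested window held 187 and 115 reads of Early S, 218 and 153 reads of Mid S, and 124 and 98 reads of Late S. A window without reads could hold up to 3, equal to 0.102 and 0.158 RPKM in Early S and 0.162 and 0.217 RPKM in the Late S libraries, for counting error only. Differences are Early S minus Late S on the scale log2(RPKM + 0.0341), where the added value is the lowest value above 0 in the files, so that differences of windows with few reads are understated.

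The first question was how windows are spread between early and late. On the 5 long arms (2L, 2R, 3L, 3R and X), the 47271 tested windows formed a broad continuum with no gap between an early and a late class. The median difference was -0.04, with quartiles of -1.46 and 1.19, a 5th percentile of -2.98 and a 95th of 2.47. The distribution was flatter than a bell curve, with an excess kurtosis of -0.86. It peaked at a log2 difference of 1.00, where windows were 1.10 times as dense as at 0. A shoulder reached to the far late side: the density at -2.5 was 0.640 of that at 0, while at 2.5 it was 0.442.

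The long late shoulder also shows in the counts. Windows past a difference of 2, a 4-fold change, made up 10.3% on the early side and 17.2% on the late side, although 29.0% and 32.3% lay past 1. Another 19.5% of windows lay within 0.5 of equality. The number of peaks in the density is not a stable property. A second low peak at -0.12 was present with a density bandwidth of 0.25 or 0.15 and absent with 0.4, and it was absent when windows that share no reads were used, with 10 times the pseudocount, and without Early S replicate 1, Late S replicate 1 or Late S replicate 2.

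The same outline came from each replicate number alone. Early S replicate 1 minus Late S replicate 1 had a median of 0.00, an SD of 1.76 and a peak at 1.12. Early S replicate 2 minus Late S replicate 2 had a median of -0.08, an SD of 1.66 and a peak at 0.86. The late side hardly differed, with 5th percentiles of -3.0 and -2.99. The early side did: the 95th percentile was 2.66 for replicate 1 and 2.32 for replicate 2.

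**Figure D1:**
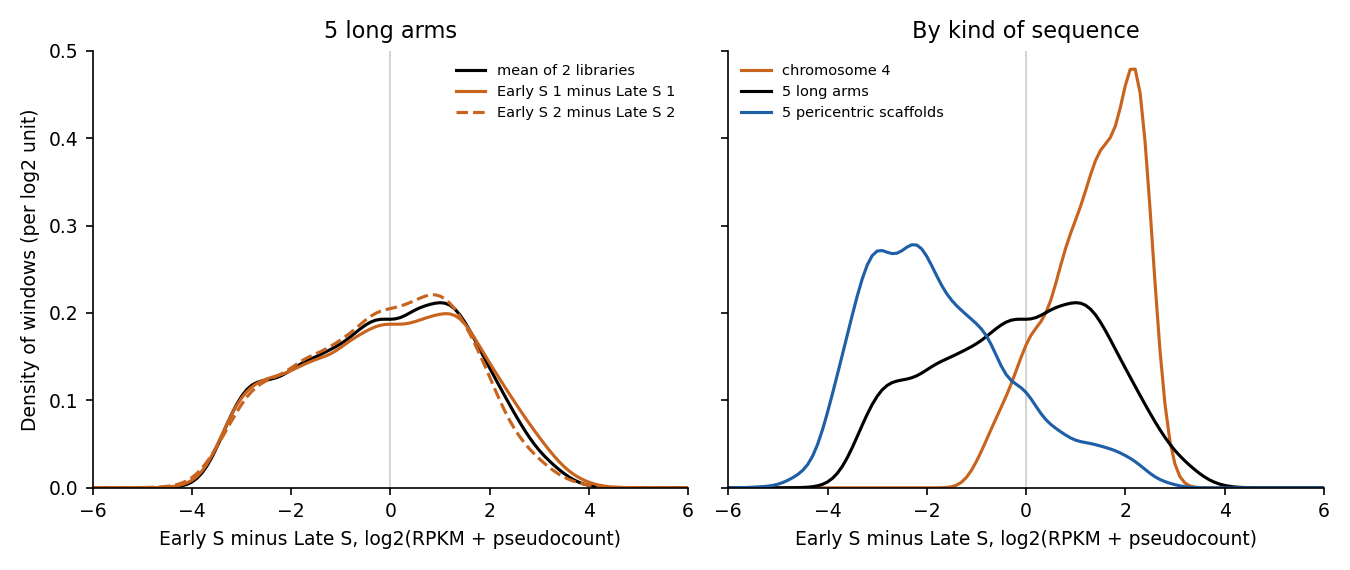
Density of tested windows (vertical axis, per log2 unit) over the Early S minus Late S difference (horizontal axis, log2 scale). Left, the 5 long arms, with the mean of both replicates in black and each replicate number in orange. Right, chromosome 4, the 5 long arms and the 5 pericentric scaffolds 2LHet, 2RHet, 3LHet, 3RHet and XHet. The replicate curves part on the early side, where the 95th percentiles are 2.66 and 2.32.

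The arms differed in how the continuum was filled. On 2R the median was 0.37 and 9.61% of windows lay below -2. On 2L the median was -0.30 and 23.7% lay below -2, against 8.39% above 2. X and 3L were alike, with 12.4% and 11.8% of windows above 2 and 17.1% and 17.4% below -2. Over the 5 long arms these shares were 10.3% and 17.2%. On 3R the early side was the thinnest of the long arms, with 7.0% above 2. The small chromosome 4 occupied the early side, with a median of 1.52, a highest peak at 2.16 and no window below -1. The pericentric scaffolds lay on the other side, with a median of -1.99 over 3055 windows and 6.48% above 1. Unplaced sequence, the scaffold U, had a median of -1.85.

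The difference was then tested in each window with limma, a linear model fitted over all 6 libraries and all tested windows. Of the 53434 windows, 37.6% had more Early S label and 44.2% more Late S label at a Benjamini-Hochberg adjusted p of 0.05. On the 5 long arms these shares were 41.2% and 42.5%. The standard error of a difference had a median of 0.189, with 5th and 95th percentiles of 0.152 and 0.668. No window with a difference under 0.25 was called. The called share was 39.3% between 0.25 and 0.5, 86.9% between 0.5 and 0.75, and 94.5% between 1 and 1.5. The largest difference that was not called was 2.44, and in windows that were not called these libraries could not resolve a difference.

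The levels behind the difference moved in opposite directions in the fractions. In the 2276 long-arm windows with a difference under -3, medians were 1.53 and 1.37 RPKM for Early S, 4.28 and 4.90 RPKM for Mid S and 15.1 and 13.7 RPKM for Late S. In the 820 windows above 3 they were 17.5 and 19.8 RPKM in Early S, 4.6 and 5.05 RPKM in Mid S, and 1.67 and 2.24 RPKM in Late S. Both extremes thus held reads well above the 3-read limit in the weaker fraction. The difference defines these classes, so the Early S and Late S levels are a description.

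Mid S took no part in the classes and was highest in the middle of them. It reached 9.74 and 9.49 RPKM in windows between 0 and 1 and 9.24 and 9.03 RPKM between -1 and 0. From there it fell off on both sides, to the levels of the outermost classes given above. In these outermost classes Mid S was lower than in the middle ones but still above the weaker of Early S and Late S.

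**Figure D2:**
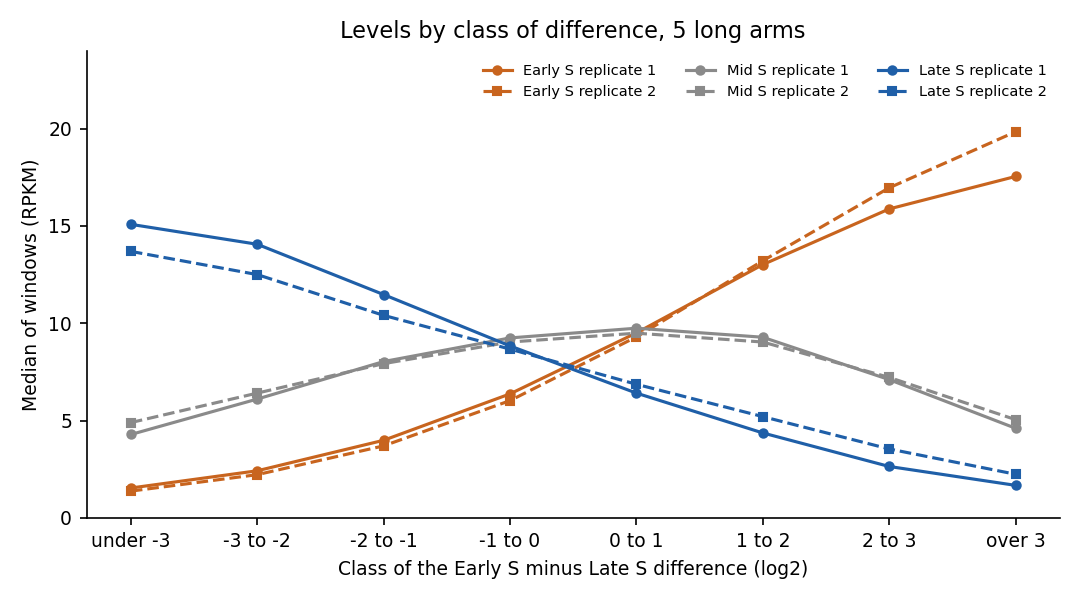
Median RPKM of long-arm windows (vertical axis) in 8 classes of Early S minus Late S (horizontal axis, log2), with a line per library. Early S climbs to 17.5 and 19.8 RPKM in the class over 3, where Late S is at 1.67 and 2.24, and both Mid S libraries peak at 9.74 and 9.49 in the class from 0 to 1.

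Early and late domains were laid out on the 5 long arms from the difference smoothed by a running mean over 11 windows. A domain had to pass 0.5 on the log2 scale in its direction, and a boundary is the point where the smoothed difference crosses 0 between domains of opposite direction. Where the smoothed difference crossed 0 several times between such domains, the middle crossing was taken. This gave 246 early and 244 late domains and 485 boundaries. Early domains covered 58.7 Mb, or 49.4% of the length, and late domains 60.2 Mb. Each library is scaled to its own reads, so the near-even split is partly set by the scaling. With libraries centred on their medians the early share was 52.7%. The smoothed difference crossed 0 at 696 places in all. The 131 runs that never passed 0.5 were short, with a median of 27.5 kb and a highest extreme of 0.490, and were absorbed by their surroundings. The weakest domains that counted had extremes of 0.511 on the early and -0.503 on the late side.

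Domains were of similar typical size in both directions. Early domains had a median length of 180 kb (quartiles 105 and 322.5 kb) and late domains one of 165 kb (96.9 and 306.9 kb). The longest domains were late. Late domains over 500 kb numbered 29 and held 36.1% of all late sequence, whereas 23 early domains over 500 kb held 26.1% of early sequence. By arm, early domains covered 59.4% of 2R, 51.2% of X, 47.4% of 3L, 45.6% of 2L and 45.2% of 3R. On 3L domains were longest, with medians of 237.5 kb early and 262.5 kb late, and there were 1.72 domains of each direction per Mb. On 2R early domains had a median of 220 kb and late ones of 130 kb, at 2.36 and 2.32 per Mb.

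Long domains were also the strongest. Among early domains, the median extreme was 0.96 in the 60 under 100 kb, 1.91 in the 114 from 100 to 300 kb and 2.62 in the 72 of 300 kb or more. Among late domains, it was -0.89 in 62, -2.20 in 116 and -3.09 in 66 domains of the same length classes. None of the 62 short late domains and 1 of the 60 short early ones passed 2. Across domains, Pearson's r of log2 length with the size of the extreme was 0.741 (n = 246) in early and 0.828 (n = 244) in late domains. Smoothing over 25 kb and windows of 10 kb flatten short domains, and a longer domain offers more windows to hold an extreme, so this relation is a description.

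Large domains were compound. Of domains under 100 kb, 98.3% of early and 98.4% of late ones had no more than 1 local extreme that stood out by 0.5 or more. Among those of 300 kb or more this held for 15.3% of early and 9.09% of late domains, and the mean number of extremes was 2.53 and 3.08. The smoothed extreme lay in the central part, between 25% and 75% of the length, in 81.7% of early and 83.2% of late domains. The smoothed difference is 0 at a boundary by the rule, so this share is partly set by it. The extremes of neighbouring early and late domains were not related in size, with r of -0.035 over 485 boundaries.

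**Figure D3:**
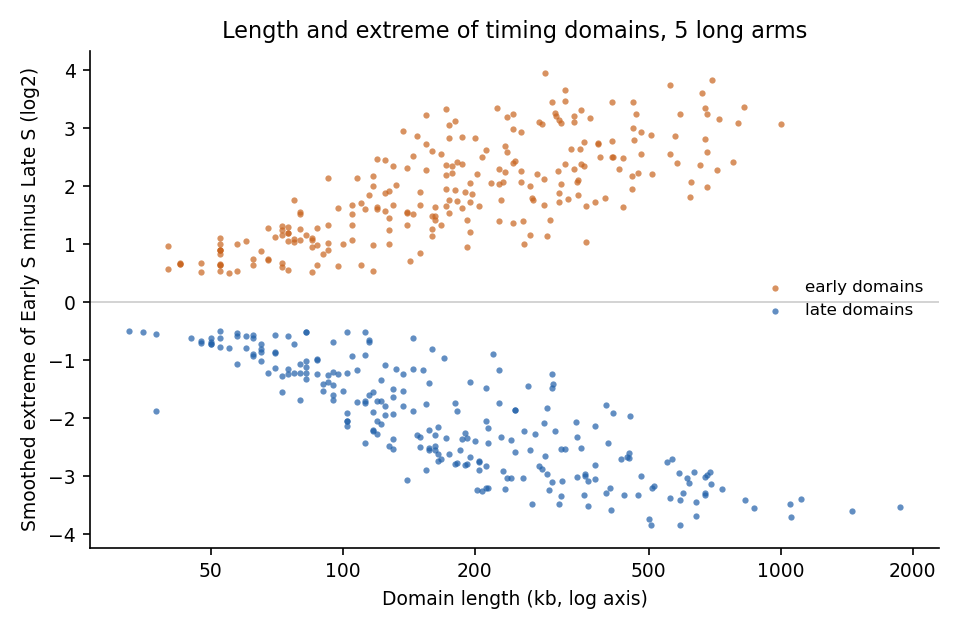
Smoothed extreme of Early S minus Late S (vertical axis, log2) against domain length (horizontal axis, kb, log axis) for 246 early and 244 late domains of the 5 long arms. Short domains stay near 1 and -1, and late domains reach the greatest lengths.

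The longest domains on X, 2L, 3L and 3R are given with their values. The longest of all was late and ran over 1872.5 kb of 2L, from 14380001 to 16252500. It held 3.51 and 3.21 RPKM in Early S, 6.56 and 7.10 RPKM in Mid S, and 14.0 and 13.6 RPKM in Late S, a mean difference of -2.26, with 8 local extremes inside it. At its smoothed extreme, the window 14835001 to 14845000 had 1.57 and 1.11 RPKM in Early S and 16.3 and 17.4 RPKM in Late S. Its difference was -3.64 ± 0.23 (SE) with an adjusted p of 1.53e-08 (limma). The window was picked by this same difference, so its p is no separate evidence. On the domain average the Early S and Late S libraries did not overlap, which the rule for domains largely sets. Of the 723 windows, 92.7% were called higher in Late S, against 42.5% of all long-arm windows.

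Second among late domains was 3442501 to 4900000 of 2L, with 2.97 and 2.81 RPKM in Early S and 10.1 and 9.23 in Late S (mean difference -1.93). It was followed by 21580001 to 22692500 of 3L, with 5.32 and 5.04 RPKM in Early S and 13.3 and 12.1 in Late S (mean difference -1.49). Of the 3 longest late domains, this 3L domain had the most windows called higher in Early S, with 15 of 444. The second had 8 of 582 and the longest 0 of 723, while 41.2% of all long-arm windows were called so.

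The longest early domain of these arms also lay on 2L, from 7765001 to 8767500. It held 10.5 and 10.6 RPKM in Early S, 6.61 and 6.73 RPKM in Mid S, and 3.16 and 3.90 RPKM in Late S, a mean difference of 1.63. The window at its smoothed extreme, 8665001 to 8675000, lay near the right edge, with 15.5 and 17.7 RPKM in Early S and 1.83 and 2.24 RPKM in Late S. Its difference was 3.01 ± 0.20 (SE) with an adjusted p of 1.84e-08 (limma), again in a window picked by that difference. X held the next longest. From 1490001 to 2287500 it had 9.998 and 10.4 RPKM in Early S and 3.22 and 3.45 in Late S, and from 16145001 to 16867500 it had 12.9 and 13.0 RPKM in Early S and 4.62 and 5.75 in Late S.

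On the same 4 arms, the largest mean differences among domains of at least 50 kb lay elsewhere. On the early side it was X from 3157501 to 3447500, with 10.2 and 12.1 RPKM in Early S and 1.96 and 2.67 in Late S, a mean of 2.48. It was followed by 3L from 10605001 to 10905000, with 10.8 and 12.5 RPKM in Early S and 1.95 and 2.57 in Late S, a mean of 2.40. Each of these was a single hump, with 1 local extreme. On the late side, 2L from 16885001 to 17385000 held 3.03 and 2.80 RPKM in Early S and 15.6 and 14.7 in Late S, a mean of -2.66. The end of 3L next to the centromere, from 24037501 to 24543557, had a mean of -2.67 at little label in any fraction, with 0.860 and 0.753 RPKM in Early S, 1.66 and 2.05 RPKM in Mid S, and 4.59 and 4.97 RPKM in Late S. Its place depends on the added value: with 10 times the pseudocount its mean was -1.98 and that of the 2L domain -2.48.

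With 2 libraries in each fraction, an exact permutation test of a single domain has 6 arrangements and cannot go below a two-sided p of 0.333, so domain means are given without a test. Domains are built from the difference, so the share of their windows that is called is no separate evidence. Neither is the lack of overlap between their Early S and Late S averages.

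Boundaries were described by the length of their transition. The transition length is the distance from the last point above 50% of the early extreme to the first point below 50% of the late extreme. Its median was 50 kb, with quartiles of 37.5 and 82.5 kb and a range from 17.5 to 427.5 kb. The extremes on either side of a boundary lay a median of 180 kb apart. Whether 50 kb is short for that spacing was not tested. At 94 of the 485 boundaries it was over 100 kb, and at 68 it was at most 30 kb, which is near the 25 kb span of the smoothing. In the 50 kb around a boundary the smoothed difference changed by a median of 1.94 (quartiles 1.45 and 2.42). Boundaries where early is followed by late along the coordinates (243) and those where late is followed by early (242) had medians of 47.5 and 50 kb. By arm the median ran from 45 kb on 2R to 57.5 kb on 3L.

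The shortest transitions on X, 2L, 3L and 3R were 17.5 kb long, and 3 boundaries tied. At 1347500 and 17435000 of X they joined weak domains, with extremes of 0.98 and -1.07 at the first and 1.11 and -1.55 at the second. The other, at 22417500 of 2L, stood in sequence with almost no label, where the boundary window had 0.204 and 0.370 RPKM in Early S and 0.0539 and 0.217 in Late S, so that its Late S values did not pass the 3-read limit. Such windows were rare: at 5 of the 485 boundaries both libraries of a fraction were under the limit. The longest transitions were 377.5 kb at 14795000 of X, 335 kb at 11650000 of 3L and 327.5 kb at 9665000 of 2L. The early extremes beside them were 2.70, 3.61 and 2.38, and the late extremes were -3.69, -2.94 and -1.77, the last of which is nearer 0 than the median of late domains (-2.09). Transition length reaches to 50% of the extreme of a whole domain, so it need not reflect the slope at the crossing. In the 50 kb around these boundaries, in the same order, the smoothed difference changed by 2.13, 1.31 and 1.45. The median over all boundaries was 1.94.

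Levels across boundaries were read from libraries that had not placed them. With boundaries placed from Early S replicate 1 and Late S replicate 1, Early S replicate 2 averaged 13.3 RPKM at 50 kb on the early side, 7.18 at the boundary and 3.87 at 50 kb on the late side. Late S replicate 2 averaged 5.75, 7.84 and 10.3 RPKM at these places. Placed from the replicates numbered 2, the boundaries gave 13.2, 7.92 and 4.43 RPKM in Early S replicate 1 and 4.88, 7.22 and 10.9 RPKM in Late S replicate 1. In both directions of the exchange the curves crossed within the boundary region and were nearly level beyond 50 kb, with 12.7 and 12.4 RPKM in Early S at 150 kb on the early side.

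Mid S label was spread more evenly and leaned to the early side. With boundaries placed from the replicates numbered 1, Mid S replicates 1 and 2 averaged 9.05 and 8.96 RPKM at 150 kb on the early side, 8.60 and 8.56 at 70 kb, 9.67 and 9.52 at 10 kb, 9.61 and 9.39 at the boundary and 7.39 and 7.42 at 150 kb on the late side. Short domains drop out with distance: 483 boundaries entered at 0, 423 at 70 kb and 298 at 150 kb on the early side, and 262 at 150 kb on the late side, so these averages are not over the same boundaries. The summed label of the 3 fractions also was lower in late than in early domains, with medians of 27.1 RPKM in windows 50 to 100 kb inside early domains, 25.2 within 10 kb of a boundary on the early side and 23.0 at 50 to 100 kb inside late domains. GC content and the share of sequence that reads can be placed on were not measured here, and their part in this was not tested.

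**Figure D4:**
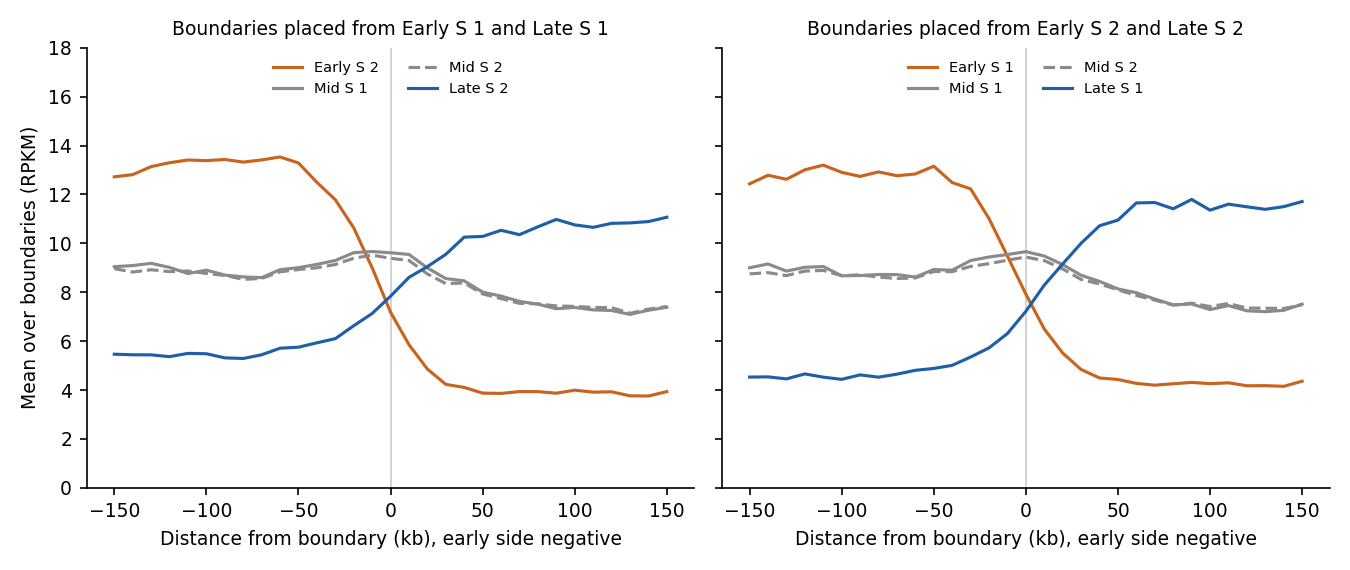
Mean RPKM over boundaries (vertical axis) against distance from the boundary (horizontal axis, kb, early side negative), in libraries that did not place the boundaries. Left, placed from Early S 1 and Late S 1 (483 boundaries at distance 0), and right, from Early S 2 and Late S 2 (487). Early S and Late S cross near 0. Mid S is highest 10 kb on the early side on the left (9.67 and 9.52 RPKM) and at 0 on the right (9.66 and 9.44 RPKM).

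Windows with Mid S above both other fractions were most frequent within 10 kb of boundaries, but their count depends on scaling. Over all tested windows, 2.43% were called higher in Mid S than in Early S and also than in Late S (limma). At the boundary windows 125 of 485, or 25.8%, were called so. The share was 15.4% within 10 kb on the early side and 17.9% within 10 kb on the late side, against 2.03% and 0.292% at 50 to 100 kb. Farther inside early domains it was 2.98% at 100 to 200 kb and 3.23% beyond 200 kb, above the 2.68% of all long-arm windows, and farther inside late domains it was 0.378% and 0.657%. The rule holds Early S and Late S near each other at a boundary, which lowers the higher of the pair, so the contrast with the background is partly set by the rule. The count of 125 at boundaries was 6 when libraries were centred on their medians, which are highest in Mid S (7.78 and 7.72 RPKM). It was 170 after quantile normalization, 157 with limma voom on recovered reads, and 17 to 113 when a library was left out, with the lowest value without Mid S replicate 1.

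Replicates were compared last, each Early S library being paired with the Late S library of its number. On the 5 long arms the 2 differences had a Pearson's r of 0.965 and a Spearman's rho of 0.970 over windows, which share reads with their neighbours. They had the same sign in 94.0% of windows and lay within 0.5 of each other in 74.8%. The SD of their difference was 0.462. With the numbers crossed, the same sign was found in 94.5%.

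Disagreement in sign was mostly a matter of small differences. Among windows with a difference of 1 to 2 in replicate 1, 99.3% were positive in replicate 2, and among those of -2 to -1, 99.6% were negative. Between 0 and 1 the share was 80.3%, and between -1 and 0 it was 88.4%. Of the 2851 long-arm windows of opposite sign, 52.1% lay within 25 kb of a boundary, where 19.4% of all long-arm windows lie. The test called 4 of the 2851, whereas of all long-arm windows it called 41.2% toward Early S and 42.5% toward Late S. Differences of opposite sign partly cancel in the mean that was tested, and the median size of that mean was 0.10 here. The low count is thus largely set by how these windows were picked.

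The shift between the numbers had a direction. The replicate 2 difference was lower by a median of 0.11 on the long arms. Its range was narrower on the early side, with 95th percentiles of 2.66 in replicate 1 and 2.32 in replicate 2. Windows between 2 and 3 in replicate 1 had a median of 2.02 in replicate 2, and those above 3 one of 2.83. These windows were picked by replicate 1, so lower values in replicate 2 are partly set by that choice. In 217 of 246 early domains the mean difference was smaller in replicate 2, with medians of 1.18 in replicate 1 and 0.97 in replicate 2. The change lay on the Late S side, where replicate 2 exceeded replicate 1 in 222 of 246 early domains, by a median of 0.19 on the log2 scale. In late domains the medians were -1.18 and -1.19. Replicate 2 libraries were also the shallower ones in each fraction, and the part of depth in this shift was not tested.

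Domains placed from 1 replicate number held in the other. Of the domains placed from replicate 1, 243 of 245 early and 242 of 244 late ones kept their direction in replicate 2, with medians of 0.92 and -1.23. Placed from replicate 2, 247 of 248 early and 241 of 246 late domains kept it in replicate 1, with medians of 1.20 and -1.13. The longest domain that turned was 107.5 kb. Boundaries fell close together: from each of the 484 boundaries of replicate 1, the nearest boundary of the same direction among the 489 of replicate 2 lay a median of 4.61 kb away, which is under 2 window steps of 2.5 kb, and 77.9% lay within 10 kb. For 43 boundaries of replicate 1 and 48 of replicate 2 no such boundary lay within 50 kb.

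Among the domains on X, 2L, 3L and 3R that differed most between the numbers, the first was the initial 37.5 kb of 3R, a late domain with 6.24 and 4.89 RPKM in Early S and 11 and 13.1 in Late S, where the mean difference was -0.74 in replicate 1 and -1.43 in replicate 2. The others were early: on 3R from 15400001 to 15525000 (1.35 in replicate 1 and 0.68 in replicate 2) and on 2L from 8897501 to 9052500 (2.43 and 1.78). In both, the Early S libraries were closer to each other than the Late S libraries. Early S was at 16.2 and 14.8 RPKM on 3R and 12.1 and 12.6 on 2L. Late S was at 6.16 and 8.68 RPKM on 3R and 2.58 and 3.75 on 2L. All 3 kept their direction in both numbers.

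**Figure D5:**
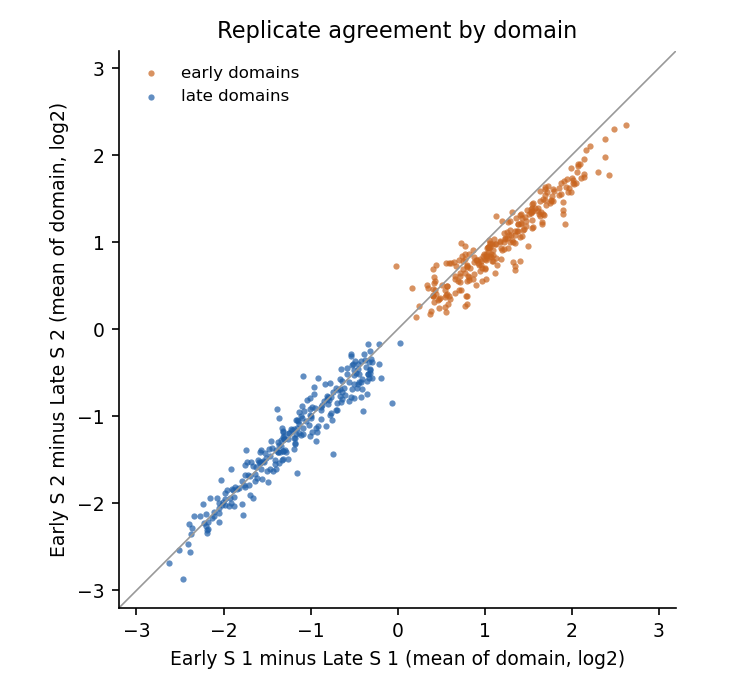
Mean Early S minus Late S difference of each of the 490 domains (log2) in the libraries numbered 2 (vertical axis) against those numbered 1 (horizontal axis), with the line of equality in grey. Early domains lie below the line in 217 of 246 cases, and late domains scatter about it.

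Agreement was lower off the long arms. On chromosome 4 the replicate differences had the same sign in 89.1% of 514 windows, and that of replicate 2 was lower by a median of 0.64. The same caller split chromosome 4 into an early domain from 42501 to 750000, a short late stretch from 742501 to 790000 and a second early domain from 782501 to 1325000, given here by the outer edges of their windows. The first held 13.7 and 13.5 RPKM in Early S and 3.72 and 5.65 in Late S, and the second early one held 8.04 and 7.82 in Early S and 2.63 and 4.01 in Late S. The late stretch had 4.96 and 4.14 RPKM in Early S and 5.92 and 7.06 in Late S, with a mean of -0.25 in replicate 1 and -0.76 in replicate 2. On the pericentric scaffolds the replicates had the same sign in 88.4% of windows, with r of 0.748 and an SD of the difference of 1.15.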

How the data were processed

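The authors deposited values in RPKM for windows of 10 kb starting every 2.5 kb, per the file headers, in 1 file per library and 1 combined file per fraction. Of the aligner, genome build, read filters and input correction, none is given in the sources used here. Sequence names are of the Release 5 type and the available gene table is of Release 6, so no gene positions or sequences were used. The fraction of Mid S replicate 1 was taken from its title. Coordinates are as in the files, counted from 1.

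Values were whole multiples of 1 read in 100% of full-width windows, within 0.02 reads. limma 3.58.1 (R 4.3.3) fitted 3 fraction means to log2(RPKM + 0.0341) in 6 libraries, with lmFit and eBayes with trend, two-sided, 3 residual and 10.7 prior degrees of freedom, and Benjamini-Hochberg adjustment over 53434 windows. Domains, densities (Gaussian kernel, bandwidth 0.25) and summaries were computed in Python 3.11.15 (SciPy 1.17.1, matplotlib 3.10.9, pandas 2.3.3, NumPy 2.4.6). Boundary positions are rounded to 2.5 kb. Windows without a value were skipped in smoothing, and the longest such run on a long arm was 105 kb, on 2L. The fit and the domain caller were tested on simulated data.

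Named regions follow a rule over X, 2L, 3L and 3R: the 3 longest domains in each direction, the 2 with the largest mean difference, the 3 shortest and 3 longest transitions, and the 3 domains that differed most between replicate numbers. Rules, lists and tests were chosen with earlier results of these data known. Replicate numbers were not taken as pairs, since the labels give each library its own extraction and the deviations of same-numbered libraries correlated over all tested windows at 0.02 between Early S and Late S, -0.03 between Early S and Mid S, and 0.21 between Mid S and Late S, so the deviations did not move together in every pair.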

Additional observations from a re-analysis of the deposited data

How the results depend on the processing

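The counts of windows with more label in Early S (20097) or Late S (23605) stayed within 1.5 times under every alternative except the use of fewer windows that share no reads: 5017 and 5917, or 37.5% and 44.3%. The excess of Late S calls turned after quantile normalization, with 20413 and 20265. With the replicate block the counts were 20277 and 23769, with 1507 windows of Mid S above both others, and with voom on recovered reads, chosen after seeing the data, 20262 and 23900. The replicate block changed no other count by over 1.5 times. Windows with Mid S above both others (1300) were 72 with libraries centred on their medians, 3221 after quantile normalization, 321 among windows that share no reads, and 186 to 1583 when a library was left out. Centring puts Mid S lower by construction. The median difference on the long arms, -0.04, was 0.10 after centring and 0.061 after quantile normalization, and the share in early domains, 49.4%, was then 52.7% and 52.5%. The number of boundaries was 341 with domains required to pass 1, and between 415 and 522 in all other alternatives. Boundaries lay a median of at most 3.03 kb from those of centred or otherwise processed values. The share within 10 kb was 85.6% after centring and 76.9% after quantile normalization, and at least 92.6% in the other alternatives compared. The median transition of 50 kb was 55 kb after quantile normalization and with domains required to pass 1, 52.5 kb with smoothing over 21 windows, and 50 to 52.5 kb when a library was left out. The mean differences of the 13 named domains kept their sign in all 117 alternatives. The skewness on the long arms was -0.12 and turned to 0.12 after quantile normalization. A count test other than voom was not run, since the deposited values are RPKM. Depth limits sequence with little label, such as the end of 3L next to the centromere, where the mean difference was -2.67, and -2.89 with 0.25 times the pseudocount.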
